A study of Bos taurus with 2 samples.

Results

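Immediate early genes and heat shock chaperones were described in the muzzle of 2 HanWoo cows, 1 with a yellow nose (light muzzle) and 1 with a black nose (dark muzzle). Both cows were females of 30 months with a yellow coat, and the labels name no treatment. Muzzle tissue came from a slaughterhouse and went straight into liquid nitrogen once it was cut out, and RNA of 1 cow of each muzzle color was hybridised to its own 1-colour Agilent bovine array on a shared slide. The time from death to removal was not given in the sources used here, and a piece of muzzle holds epidermis, dermis, glands, vessels and muscle together. The members were 60 genes chosen by their function, with earlier results of these data known. Of these, 32 belong to the immediate early class and 28 to the chaperone class. A probe counted for a member when its accession was paired with that gene symbol in the RefSeq gene table (ARS-UCD2.0). Probes were found for 25 of the 32 immediate early genes and 26 of the 28 chaperones, 127 probes in all, out of 9647 genes with a named probe. FOSL1, FOSL2, EGR3, NR4A3, KLF2, IER5, BTG2, HSPA6 and HSPB7 were not analysed here. With 1 array per group there was no replicate, no test was made, and each difference is one between 2 animals whose muzzle color, individual and piece of tissue cannot be told apart.

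Immediate early genes are genes whose transcription starts within minutes of a stimulus without new protein synthesis, and many of them code for transcription factors or for proteins that shut the same signals down again. Heat shock chaperones hold or refold unfolded proteins, and the inducible ones are driven by the heat shock factor HSF1 when proteins lose their shape through heat, lack of oxygen or mechanical load. Transcripts of both classes are known to respond to the handling of a tissue, and several chaperones are also part of the normal equipment of muscle and epidermis. The 2 classes are therefore given apart.

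The measurement was the processed signal of each probe, an intensity in arbitrary units from which the scanner software has removed the background. The lowest signal marked as well above background was 20.8 units in the light muzzle and 20.3 in the dark muzzle. The mark is set spot by spot, so some brighter spots lack it, and saturation was not reached by any spot. The log2 ratio of a probe is the log2 signal of the dark-muzzle cow minus that of the light-muzzle cow, after each array was shifted by its 75th percentile (1144 and 1137 units). The ratio of a gene is the mean over its probes well above background in both cows. Of the 127 member probes, 124 had such a ratio, and the other 3, dim in 1 of the cows, gave a lower bound. Technical error could be read in several ways. The SD of the ratio between repeated spots of a probe had a median of 0.049 over 43 probes spotted 4 or more times. Member probes had 1 spot each, so that SD does not describe them. The SD between different probes of a gene had a median of 0.17 over 5363 genes. The error that the scanner software attached to the ratio of a member probe had a median of 0.20 and reached 0.41 over the 124 probes. It was larger for the 3 probes with a bound, up to 0.48. None of them contains the variation between cows. Log2 ratios of the 8 spike-in transcripts that both arrays detected ran from -0.37 to 0.012.

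The immediate early genes lay on both sides of 0. Of the 25 with a value, 14 had a log2 ratio above 0 and 11 below 0, with a median of 0.30. Over all 8914 genes with a value the median was 0.065 and 55.2% were above 0. When the arrays were aligned on the spike-in transcripts, 18 members were above 0, but that alignment raised all genes alike, to a median of 0.29. The class median less the median over all genes was 0.23 with either alignment. At a threshold of 2-fold, 4 members (FOS, GADD45A, GADD45B and GADD45G) were higher in the dark muzzle and 2 (NR4A2 and CTGF) were lower. Across all genes 9.86% were at least 2-fold higher and 6.47% at least 2-fold lower, against 16.0% and 8.0% of the members. At 1.5-fold 9 members were higher and 4 lower, against 19.8% and 13.6% of all genes. At 3-fold 3 were higher and 0 lower, against 4.69% and 3.03%. Aligned on the spike-in transcripts, the calls over all genes changed from 879 higher and 577 lower to 1252 higher and 434 lower.

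**Figure D1:**
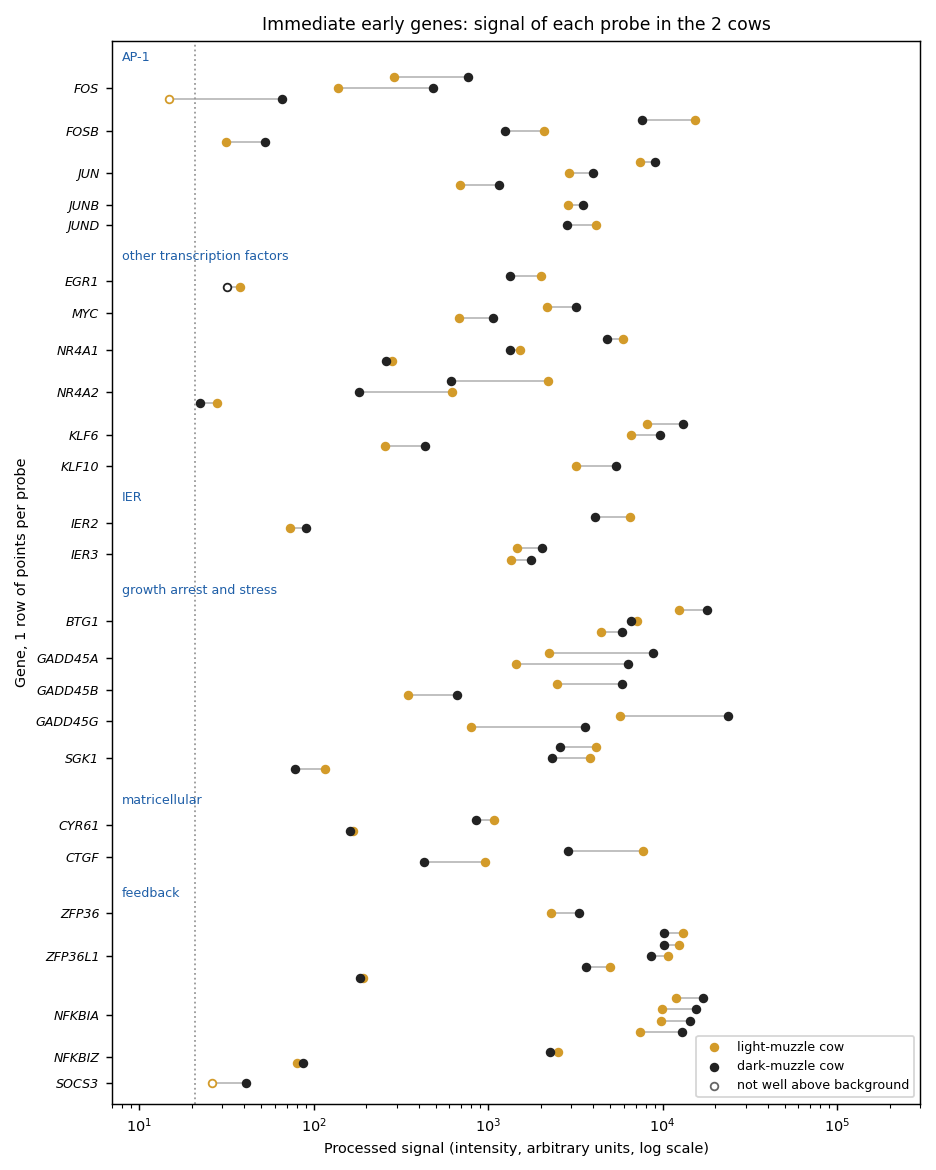
Processed signal of every probe of the 25 immediate early genes with probes, on a log axis in arbitrary intensity units, with 1 pair of points per probe (yellow, light-muzzle cow; black, dark-muzzle cow). Open points were not well above background, and the dotted line is the lowest signal detected in the light muzzle (20.8). The black points of the GADD45 genes and FOS lie to the right of the yellow ones, and those of CTGF and NR4A2 to the left.

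AP-1 is the dimeric transcription factor made of FOS and JUN proteins, and its subunits went in different directions. FOS, the best known immediate early gene, had a signal of 291 in the light muzzle and 766 in the dark muzzle on its brightest probe. Its next probe read 139 and 485. The mean log2 ratio of these probes was 1.61, or 3.05-fold. Its dimmest probe was detected in the dark muzzle alone (65.9 against 14.9). The bound of 3.18-fold rests on the lowest signal detected on the light array and is not a firm minimum. All probes of FOS were thus higher in the dark muzzle.

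FOSB, a relative of FOS, was the member of this class whose probes disagreed most. Its brightest probe had a signal of 15417 in the light muzzle and 7621 in the dark, a log2 ratio of -1.01, and the next 2084 and 1244, a ratio of -0.74. Its dimmest probe was at 31.3 and 52.4, a ratio of 0.75. The mean of the 3 probes, -0.33, lay within 2-fold, whereas the brightest probe alone was past it. JUN, the partner of FOS, had log2 ratios of 0.29, 0.48 and 0.74 on its 3 probes. JUNB had a ratio of 0.30, from signals of 2868 and 3505. JUND, the least inducible of the JUN genes, had a ratio of -0.55, from signals of 4179 and 2836.

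Among the other transcription factors, NR4A2, an orphan nuclear receptor induced by growth factors and cyclic AMP, was lowest. Its brightest probe read 2216 in the light muzzle and 613 in the dark muzzle, and the second 619 and 181, with log2 ratios of -1.85 and -1.77. The dimmest probe read 27.9 and 22.4, close to the limit of detection, and its ratio of -0.31 brought the mean to -1.31, or 2.48-fold lower. Its relative NR4A1 had a mean ratio of -0.19, from 3 probes between -0.29 and -0.11, which turned to 0.029 when the arrays were aligned on the spike-in transcripts. EGR1, a zinc finger factor that usually accompanies FOS, was at 2022 in the light muzzle and 1338 in the dark muzzle, a ratio of -0.59. Its dim probe, at 37.8 and 32.1, was detected in the light muzzle alone. FOS and EGR1 thus had ratios of opposite sign. The growth regulator MYC (0.61) and the zinc finger factors KLF6 (0.68) and KLF10 (0.78) lay on the positive side within 2-fold, and all their probes had the same sign. KLF10 passed 2-fold with the spike-in alignment.

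The GADD45 genes code for small proteins of growth arrest and DNA damage signaling that activate p38 and JNK kinases. GADD45G and GADD45A had the highest ratios of the immediate early class. GADD45G had signals of 5696 and 793 on its probes in the light muzzle and 23629 and 3601 in the dark muzzle. Its log2 ratios of 2.06 and 2.19 gave a mean of 2.13, or 4.37-fold. GADD45A read 2239 and 1443 in the light muzzle and 8833 and 6367 in the dark muzzle, with a mean ratio of 2.07, or 4.20-fold. GADD45B read 2482 and 346 in the light muzzle and 5851 and 665 in the dark muzzle, with a mean ratio of 1.10, or 2.14-fold, and 0.99, short of 2-fold, under normexp background correction. Each of these differences was several times the median SD between probes of a gene (0.17), which contains no variation between cows. By its ratio GADD45G ranked at place 263 and GADD45A at place 272 from the top of the 8914 genes.

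Other genes of growth control differed less. SGK1, a kinase induced by serum and glucocorticoids, was lower in the dark muzzle on each of 3 probes, with a mean ratio of -0.65. BTG1, an inhibitor of proliferation, had a mean of 0.28 from probes between -0.094 and 0.53. IER3 had ratios of 0.40 and 0.49. IER2 had -0.66 on its bright probe and 0.31 on its dim one. CTGF and CYR61 are matricellular proteins, secreted into the matrix, and textbook targets of YAP and TGF-beta. CTGF read 7751 and 957 in the light muzzle and 2851 and 428 in the dark muzzle, with a mean ratio of -1.29, or 2.45-fold lower. CYR61 had a mean ratio of -0.20, which turned to 0.026 with the spike-in alignment. CTGF is made by fibroblasts among other cells, and 8 of 9 measured fibroblast markers were below 0 as well, with a median of -0.65 and a range from -1.41 to 0.21. Their summed signal was 723451 units in the light muzzle and 499222 in the dark muzzle. Their part in the ratio of CTGF was not tested, and fewer cells of a type cannot be told apart from less RNA per cell.

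Of the genes that switch signals off again, the 4 measured in both cows were within 2-fold, and SOCS3 had a bound only. NFKBIA, the inhibitor that holds NF-kappaB in the cytoplasm, was higher in the dark muzzle on each of 4 probes, from 0.52 to 0.82. ZFP36, which destabilises cytokine transcripts, had a ratio of 0.53. Its relative ZFP36L1 was lower on each of 5 probes, from -0.44 to -0.043. NFKBIZ had a mean of -0.010. SOCS3, an inhibitor of cytokine receptors, had signals of 26.1 and 41.0, of which only the second, from the dark muzzle, was well above background. Its bound of 1.58-fold is the ratio of these signals and not a firm minimum. The log2 value of 0.66 fell to 0.17 under normexp background correction. Without SOCS3 the median of the class was 0.29.

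A further list of 35 genes that are also known for early induction was set beside them, and 22 of these had a value. Their median was 0.16, with 2 (9.09%) past 2-fold on the higher side in the dark muzzle and 4 (18.2%) on the lower side, against 9.86% and 6.47% of all genes. ATF3, a stress-induced transcription factor, had the highest ratio, 2.38, from signals of 824 and 4270. PLK3, a kinase of the stress response, had 1.23. The lower ones were ID2 (-2.04), an inhibitor of helix-loop-helix factors, RHOB (-1.85), a small GTPase, THBS1 (-1.72), a matricellular protein, and TRIB1 (-1.28), a pseudokinase. The probes of RHOB ranged from -3.64 to -0.068 and the 6 probes of THBS1 from -2.41 to -0.10. DUSP1, a phosphatase of MAP kinases that is usually induced together with FOS, had a ratio of 0.54.

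The heat shock chaperones lay mostly on the positive side. Of the 26 with a value, 23 had a log2 ratio above 0, with a median of 0.64, or 1.56-fold. At 2-fold, 7 (26.9%) were higher in the dark muzzle and 0 were lower, against 9.86% and 6.47% of all genes. The 7 were HSPB3, CRYAB, HSPB2, DNAJB5, HSPB8, HSF2 and DNAJB4. With the median over all genes subtracted, the median of the class was 0.57, and it was between 0.54 and 0.60 under every other normalization, background correction and filter that was tried. At 1.5-fold 16 were higher, against 19.8% of all genes, and at 3-fold 5, against 4.69%. At the upper end were the small heat shock proteins HSPB3, CRYAB, HSPB2 and HSPB8, and the J protein DNAJB5. The 20 chaperones outside the small heat shock family, DNAJB5 among them, had a median of 0.58. Of these, 3 (15.0%) were at least 2-fold higher, against 9.86% of all genes.

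**Figure D2:**
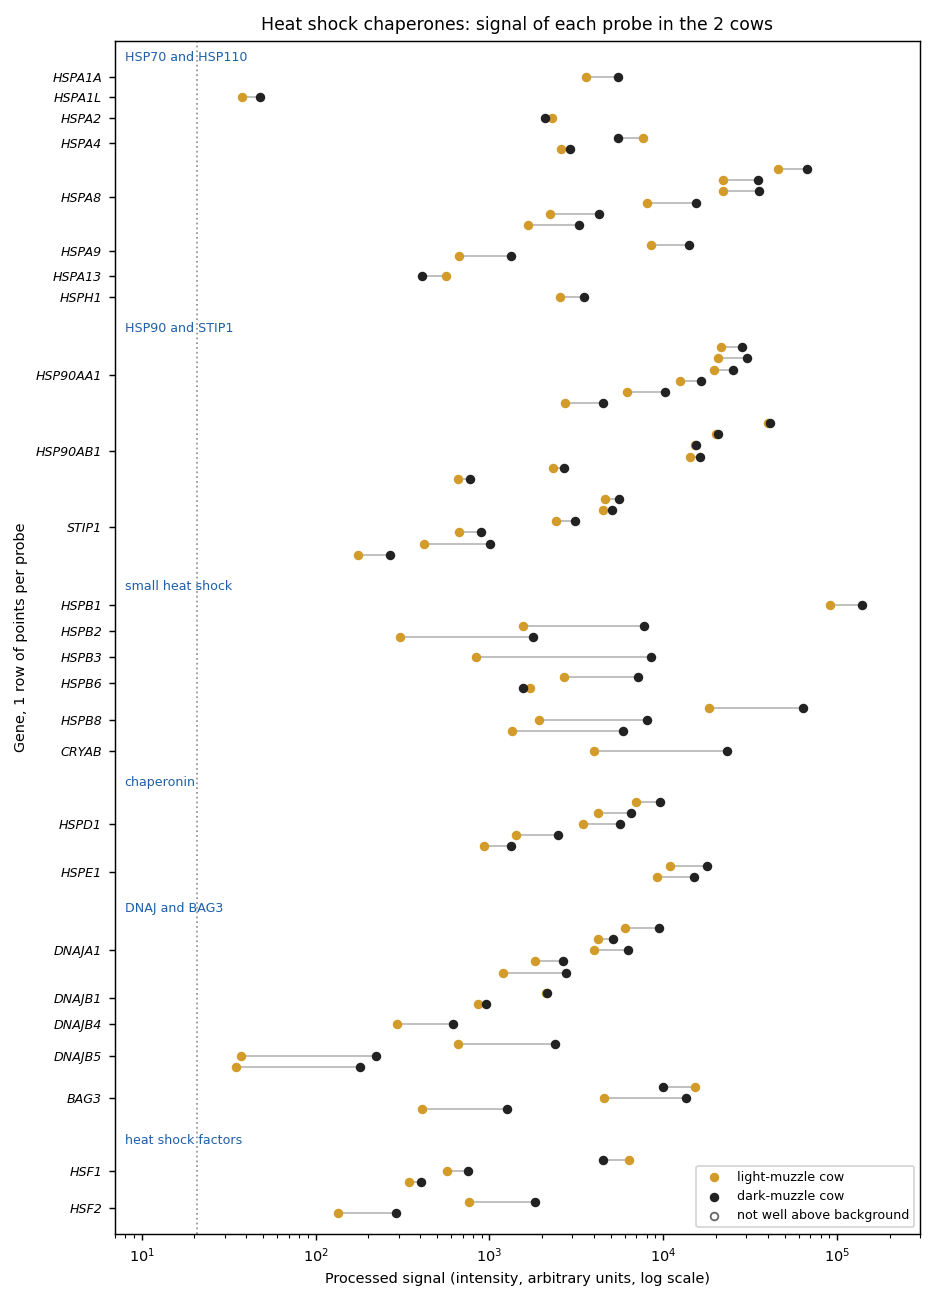
Processed signal of every probe of the 26 chaperones with probes, on a log axis in arbitrary intensity units, drawn as for the immediate early genes (yellow, light-muzzle cow; black, dark-muzzle cow; dotted line, lowest signal detected in the light muzzle, 20.8). The widest gaps are those of HSPB2, HSPB3, HSPB8, CRYAB and DNAJB5, whereas both points of HSP90AB1 and DNAJB1 nearly coincide.

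The small heat shock proteins, which bind unfolding proteins without ATP and are abundant in striated muscle, ranged from 0.62 (HSPB1) to 3.35 (HSPB3), and HSPB3, CRYAB and HSPB2 were the 3 highest chaperones. HSPB3, a muscle member of the family, read 834 in the light muzzle and 8484 in the dark muzzle on its single probe, a log2 ratio of 3.35, or 10.2-fold, place 74 of 8914. CRYAB, alpha-B crystallin, which protects desmin and titin in muscle, read 3991 and 23339, a ratio of 2.56, or 5.88-fold. HSPB2, which pairs with HSPB3, read 1559 and 307 in the light muzzle and 7714 and 1774 in the dark muzzle, with a mean of 2.43, or 5.38-fold. CRYAB and HSPB2 are neighbours among the protein-coding genes of the RefSeq table, and their ratios differed by less than the error of 0.20 on a probe's ratio.

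HSPB8, the partner of BAG3 in the removal of damaged muscle proteins, was higher on each of 3 probes. They read 18245, 1930 and 1351 in the light muzzle and 63436, 8059 and 5874 in the dark muzzle, with ratios between 1.81 and 2.13 and a mean fold of 4.01. HSPB6, a small heat shock protein of smooth and striated muscle, had a bright probe at 2686 and 7109, a ratio of 1.41, and a further probe at 1703 and 1559, a ratio of -0.12. The mean, 0.65, lay within 2-fold, and the brightest probe alone did not. HSPB1 (HSP27), made in epidermis as well as in muscle, had signals of 90426 and 138624 and a ratio of 0.62. The family median over 6 measured members was 2.21. HSPB9, a testis member that was on the further list, was detected in the light muzzle alone (126 against 19.7). Its bound, 6.17-fold lower in the dark muzzle, is not a firm minimum either.

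Skeletal muscle transcripts differed between the 2 pieces of muzzle in the same direction. All 17 measured muscle markers of 20 listed, among them ACTA1 (2.24), MB (2.56), DES (2.60) and MYOZ1 (3.72), passed 2-fold on the side of the dark muzzle, with a median of 3.31. Their summed signal was 906138 units in the light muzzle and 5783475 in the dark muzzle. The ratios of HSPB3, CRYAB and HSPB2 lay within the range of these markers, 2.24 to 3.72. Those of HSPB8, HSPB6, HSPB1, GADD45A and GADD45G lay below it. DNAJB5, at a mean of 2.28, lay at its lower end, but its brightest probe (1.86) and its normexp value (1.51) lay below the range. Smooth muscle markers had a median of 0.22 over 8 genes (-0.36 to 2.60), 3 of them at least 2-fold higher. The highest was DES, which is on both muscle lists. Leukocyte markers had a median of -0.12 over 11 (-0.39 to 0.51). Erythrocyte markers had one of -0.050 over 5 (-0.51 to 0.19), some of them under 50 units in both cows. Endothelial markers had 0.88 over 9 (0.26 to 1.33). Keratinocyte markers had 0.43 over 8 (-0.52 to 1.57), with 2 below 0 and 3 at least 2-fold higher. Melanocyte markers had 1.48 over 6, with 1 below 0 (-0.52) and a bound as the highest (3.28). Serous gland markers went the other way, with a median of -2.81 over 9 genes, 7 of them at least 2-fold lower, and a summed signal of 449908 against 35044 units over the 8 detected in both cows. The part of any of these in the ratios of the members was not tested.

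**Figure D3:**
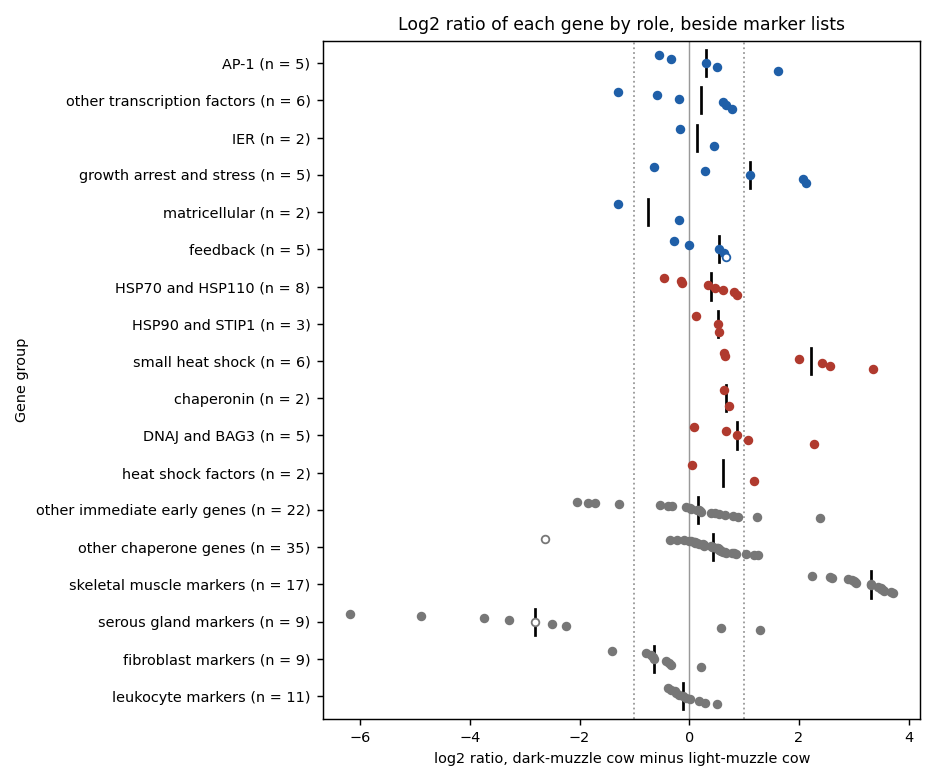
Log2 ratio (dark-muzzle cow minus light-muzzle cow) of each gene with a value, by role. Blue points are immediate early genes, red points chaperones, grey points other genes of both pathways and marker lists, open points lower bounds, black bars medians, and dotted lines 2-fold. The small heat shock proteins (median 2.21) reach into the range of the skeletal muscle markers (median 3.31), and the HSP70, HSP90 and chaperonin groups stay within 2-fold.

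HSP70 proteins are ATP-driven chaperones that bind exposed stretches of a protein chain. HSPA1A, the classical heat-inducible HSP70, read 3592 in the light muzzle and 5481 in the dark muzzle, a log2 ratio of 0.62, or 1.53-fold. The constitutive HSPA8 (HSC70) was higher on each of 6 probes, from 45322 against 67003 on the brightest to 1660 against 3282 on the dimmest, with a mean of 0.81. HSPA9, the HSP70 of mitochondria, had a mean of 0.87. Both reached 2-fold only with the spike-in alignment, at 1.03 and 1.09. HSPH1, a nucleotide exchange factor of HSP70, had 0.46. HSPA1L, the neighbour of HSPA1A in the RefSeq table and a gene of the testis in the main, had 0.34 at signals of 38.0 and 47.8. HSPA2 (-0.13), HSPA4 (-0.15) and HSPA13 (-0.46) were the 3 chaperones below 0, and the first and second of them turned positive with the spike-in alignment. Coding sequences of HSPA1A, HSPA1L, HSPA2, HSPA6 and HSPA8 are alike, so a probe may bind more than 1 of their transcripts.

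The cytosolic HSP90 genes were less different. The inducible HSP90AA1 was higher on each of 6 probes, from 0.37 to 0.75, with a mean of 0.53. The constitutive HSP90AB1 had a mean of 0.13, with 6 probes from 0.023 to 0.23, and turned to -0.012 under quantile normalization. STIP1, which hands client proteins from HSP70 to HSP90, had a mean of 0.52 over 6 probes, from 0.18 to 1.27. The mitochondrial chaperonin is built from HSPD1 (HSP60) and its lid HSPE1 (HSP10), whose genes are neighbours. HSPD1 was higher on each of 5 probes, with a mean of 0.63, and HSPE1 on both, with a mean of 0.72. These HSP70, HSP90 and chaperonin genes thus differed by less than 2-fold as reported, though HSPA8 and HSPA9 passed it with the spike-in alignment. The single probe of the inducible HSPA1A (0.62) lay below the mean of the constitutive HSPA8 (0.81). It lay above the brightest HSPA8 probe (0.57), so their order depends on the probes used.

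J proteins bring clients to HSP70. DNAJB1 (HSP40), which is induced by heat together with HSPA1A, was nearly equal in both cows, at 2120 and 2131 on the brighter probe and 864 and 956 on the other, a mean ratio of 0.085. DNAJA1 was higher on each of 5 probes, with a mean of 0.68. DNAJB4 read 294 and 614, a ratio of 1.07. DNAJB5 read 658 in the light muzzle and 2375 in the dark muzzle on its brightest probe and 37.1 and 224 and 34.7 and 179 on the others. Its mean ratio was 2.28, or 4.85-fold, and 1.51 under normexp background correction.

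BAG3, a cochaperone of HSP70 that works with HSPB8 in muscle, had probes that disagreed. A pair of them read 4582 and 410 in the light muzzle and 13455 and 1262 in the dark muzzle, with ratios of 1.56 and 1.63. The brightest probe read 15192 and 9941, a ratio of -0.60. The mean was 0.86, the median over the probes 1.56, and the brightest probe alone turns the sign, so the direction of BAG3 is not settled by these probes. Of the heat shock factors, HSF2 read 765 and 135 in the light muzzle and 1822 and 289.5 in the dark muzzle, with a mean of 1.19, or 2.28-fold. HSF1, the main regulator of the response, had probes at -0.50, 0.24 and 0.41 and a mean of 0.049.

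Of a further 41 genes of chaperones and their helpers, 35 had a value. Their median was 0.43 and 30 (85.7%) were above 0, against 55.2% of all genes. At least 2-fold higher were 3 (8.57%, against 9.86% of all genes), namely DNAJA4 (1.26), BAG2 (1.17) and BAG1 (1.02), and 1 was lower (2.86%, against 6.47%), the bound of HSPB9. The subunits of the cytosolic chaperonin ring TCP1, CCT2, CCT3, CCT4, CCT5, CCT6A, CCT7 and CCT8, which folds actin and tubulin, lay between 0.27 and 0.67. HMOX1, an oxidative stress gene, had a ratio of 0.84, and SERPINH1, the collagen chaperone of fibroblasts, one of -0.22.

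**Figure D4:**
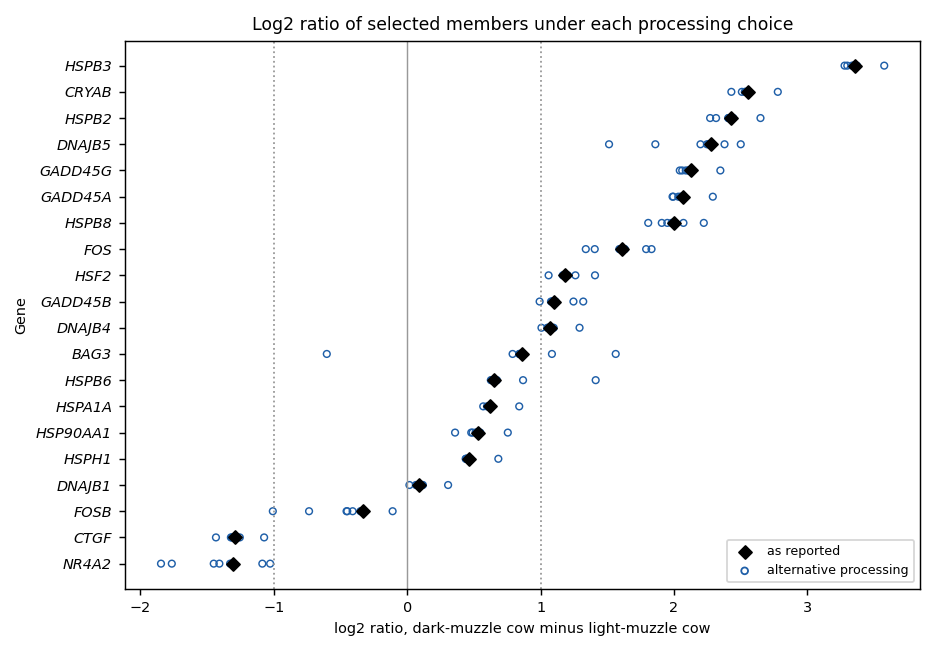
Log2 ratio (dark-muzzle cow minus light-muzzle cow) of the members past 2-fold, of 3 members whose probes disagreed (BAG3, FOSB and HSPB6) and of 4 heat-inducible chaperones, as reported (black diamonds) and under 12 other processing choices (blue circles). HSPB3, CRYAB, HSPB2, DNAJB5, HSPB8, GADD45A, GADD45G, FOS, HSF2 and DNAJB4 stay right of the 2-fold line under every choice. GADD45B falls just short of it under normexp (0.99), and BAG3 spans from -0.60 to 1.56.

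Probes of a gene did not always give the same picture. Of the members, 37 had several probes and 14 had 1. In 8 members the measured probes took both signs, and in 3 of these, BAG3, FOSB and HSPB6, they differed by at least 2-fold. All probes of the 13 members past 2-fold had the sign of the mean.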

How the data were processed

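Muzzle RNA of 1 cow per color was read on an Agilent 1-colour bovine array, with both arrays on 1 slide. Samples were grouped by the tissue color in their labels. The authors deposited Agilent Feature Extraction 10.7.3.1 output, whose processed signal is a background-subtracted, detrended intensity with an estimated error. A deposited table of log2 values per probe matched the shifted levels used here to within 0.01 for 43628 of 43639 probes (column medians -2.47 and -2.45). It was an alternative only.

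Control spots and outlier spots (13 per array) were left out, spots of a probe were averaged, and 20587 of 43639 probes (47.2%) took a symbol from the RefSeq table of ARS-UCD2.0. The array was designed on another assembly, so no coordinates are given. Of the noncontrol spots, 78.8% (light) and 81.9% (dark) were well above background. A gene without a probe measured in both cows took its largest lower bound, the bright level over the higher of the lowest level well above background and the dim probe's own. The number of arrays limits the precision, and the threshold was 2-fold.

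The members and the lists were chosen with earlier results of these data known. Members past 2-fold, or with probes of opposite sign at least 2-fold apart, are given with both signals, other members by their ratio, and genes of the further lists by name where past 2-fold. DUSP1, the chaperonin ring, HMOX1, SERPINH1 and 4 muscle markers were named after their values were seen. Alternatives were other alignments (50th percentile, none, quantile, loess with span 0.3, spike-in), normexp (offset 50) on the median pixel signal, no filter on dim probes, a floor at the detection limit, outlier spots kept, the deposited table, the brightest probe, the median over probes, and thresholds of 1.5-fold and 3-fold. Matching by gene name was not run, since the files used here carry accessions and no gene names, and matching by accession alone is then the matching used throughout. Python 3.11.15, numpy 2.4.6, pandas 2.3.3, R 4.3.3 and limma 3.58.1 were used. The code for the gene values was run on simulated data with shifts far past the threshold and little noise. That run checks the code and says nothing on how reliable the calls are.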

Additional observations from a re-analysis of the deposited data

How the results depend on the processing

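The spike-in transcripts had a median log2 ratio of -0.22, and alignment on them raised every ratio by 0.22. The median then was 0.52 for the immediate early genes, 0.86 for the chaperones and 2.44 for the small heat shock proteins, with 0.29 over all genes. With the other choices these medians moved by less than 0.17, the median SD between probes of a gene. At 1.5-fold, 9 immediate early genes were higher and 4 lower, against 19.8% and 13.6% of all genes, and 16 chaperones were higher. At 3-fold, 0 immediate early genes were lower, against 3.03%. All 13 members past 2-fold kept their sign under the 12 alternatives, and 12 stayed past 2-fold, GADD45B being the exception. Of 612 member values under alternatives, 532 moved by less than that SD and 80 by more, 51 of these with the spike-in alignment. This tally depends on which alternatives were chosen and does not measure how reliable the values are. The deposited table nearly equalled the levels used, and the 50th percentile and no alignment changed all ratios by a small constant. The spike-in shift of 0.22 was larger than the SD for every member. The sign of 9 members changed under at least 1 alternative, all within 2-fold as reported. No paired analysis was possible because each group held 1 array, and no array could be left out. Probes under 50 units in at least 1 cow belonged to FOS, FOSB, EGR1, NR4A2, SOCS3, HSPA1L and DNAJB5. With normexp, DNAJB5 went from 2.28 to 1.51 and NR4A2 from -1.31 to -1.03.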

Other observations

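Within a gene, dimmer probes tended to have higher ratios. Among 3223 genes with measured probes at least 4-fold apart in mean level, the dimmest probe had a higher log2 ratio than the brightest in 2387 (74.1%), with a median difference of 0.20, and in 70.7% after loess normalization. Among the members it was higher in 24 of 26, with a median difference of 0.28. The 6 probes of HSPA8 show it, from 0.57 on the brightest (45322 units in the light-muzzle cow) to 0.99 on the dimmest (1660 units), as do those of HSP90AA1, HSP90AB1 and HSPA9. NR4A2, whose bright probes were lower in the dark muzzle, had a dim probe nearer to 0. No cause of this was tested.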
